A study of Mus musculus with 6 samples.

Results

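Genes of telomere protection and telomerase were examined in mature oocytes of aged mice cultured with or without quercetin, a plant flavonol. The 10 members were taken by gene symbol from a count table of 53465 mouse gene identifiers. They are the 7 shelterin genes *Terf1*, *Terf2*, *Terf2ip*, *Tinf2*, *Acd*, *Pot1a* and *Pot1b*, the telomerase genes *Tert* and *Dkc1*, and the helicase gene *Rtel1*. All were found, and all 10 were among the 11842 genes with enough reads to be tested.

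Telomeres are the repeated DNA ends of chromosomes. The shelterin proteins coat them and keep the ends from being treated as DNA breaks, and telomerase, a reverse transcriptase that carries its own RNA template, can add new repeats. The fully grown oocyte is largely silent in transcription, so its RNA is mostly what was stored during growth, and maturation is known for turnover of that store. Telomere length in the egg has been studied as a feature of reproductive ageing.

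The series holds 6 pools of M II oocytes, the stage arrested at the second meiotic metaphase, from Kunming (KM) females aged 9 to 10 months. The 3 control pools had 0 µM and the 3 quercetin pools had 10 µM quercetin during a 16 h in vitro maturation. Each pool held 15 oocytes from 3 mice, so single animals cannot be followed. There was no young group, and whether the controls received the DMSO in which quercetin was dissolved is not given in the sources used here. P-values measure only the spread between these pools. In such pools, fewer molecules of a transcript in each oocyte and fewer oocytes carrying it cannot be told apart.

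The pools held 7880467 to 9938743 counts each. At that depth 3 counts, the limit that a count of 0 allows, correspond to 0.302 to 0.381 CPM, counts per 1000000 counted reads. The reads were amplified and carry no molecular identifiers, so limits and intervals of this kind cover counting error only. All 10 oocyte markers were counted in every pool, and their summed level was 21766 to 26151 CPM in the control pools and 25408 to 26741 CPM in the quercetin pools. Single markers were less even than the sum. The highest pool was 1.34 times the lowest for *Gdf9*, the most even of them, and 11.9 times for *Zp2*, the least even. Between the groups, *Ooep* alone of the 10 had an unadjusted p under 0.05 (0.0412, adjusted p = 0.988, edgeR's quasi-likelihood test). Its log2 fold change, quercetin over control, was -0.92. Of 12 cumulus and granulosa markers, 9 had a count in some pool and *Ptx3*, *Amh* and *Foxl2* were at 0 in all 6. Markers with a count numbered 4, 4 and 6 in control pools 1 to 3 and 7 in each quercetin pool. The summed level of the 12 markers was 61.3 to 76.5 CPM in controls and 77.9 to 84.6 CPM with quercetin. Once *Cyp19a1* was left out, it was 2.89 to 7.74 and 4.83 to 8.67 CPM. On the first principal component, with 32.4% of the variance, quercetin pools 1 and 2 lay at -37.9 and -30.9, while quercetin pool 3 lay at 30.8, beside control pool 2 at 31.3.

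None of the 10 genes differed between the groups past the study's thresholds, an adjusted p under 0.05 with a fold change over 2, in edgeR's quasi-likelihood test, whose p-values were adjusted by Benjamini-Hochberg across the table. The same test called 0 of the 11842 genes (0.0%), and 477 of them (4.03%) had an unadjusted p under 0.05. The study itself reported up-regulated and down-regulated genes past its thresholds, and its RNA sequencing methods do not name the test used. It also measured selected genes by qPCR and reported similar trends. DESeq2 called 12 genes and edgeR's likelihood ratio test called 16, and no member was among them. In the quasi-likelihood test, genes with an unadjusted p under 0.05 numbered 1563 of 12258 (12.8%) without quercetin pool 3. Without control pool 2 they numbered 241 of 12186 (1.98%). In the quasi-likelihood test on all 6 pools no member had an unadjusted p under 0.05, while *Terf1* had one of 0.0492 in DESeq2 and 0.0314 in limma-voom. No member had control and quercetin pools that did not overlap, against 1254 of all tested genes (10.6%). The log2 fold change, quercetin over control, was above 0 in 6 members and below 0 in 4, with a median of 0.038 beside -0.026 over all tested genes. It lay within 0.5 of 0 in 8 of the 10, and the 2 outside that range, *Terf1* and *Terf2ip*, lay in opposite directions.

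**Figure D1:**
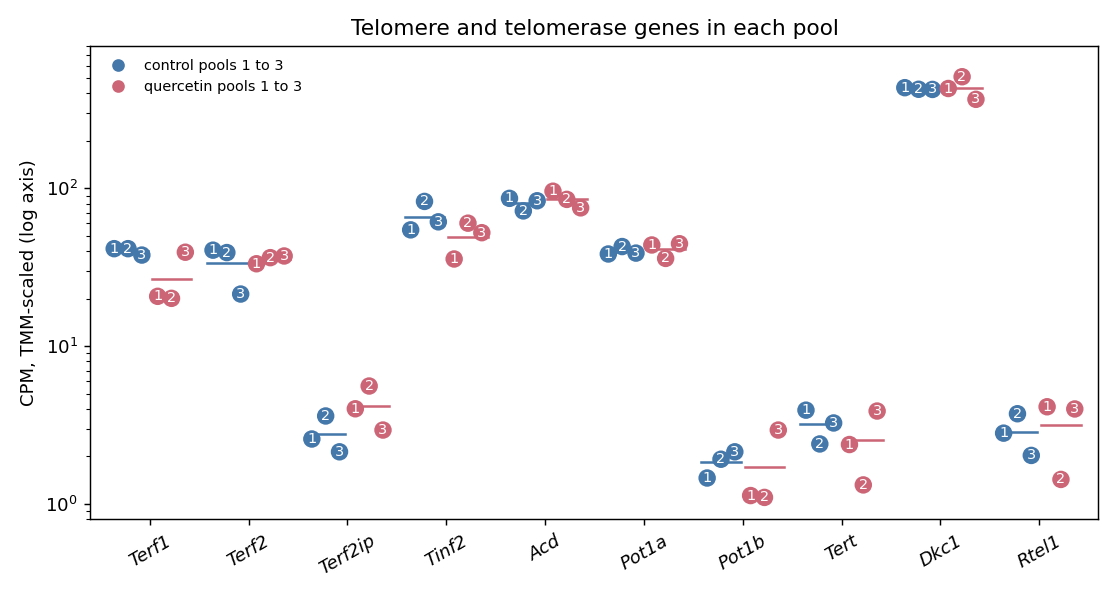
Level of each of the 10 genes in every pool, in CPM after TMM scaling on a log axis. Circles are pools, numbered within their group, and lines are group means; in every gene the control and quercetin pools overlap, and *Terf1* is near 20 CPM only in quercetin pools 1 and 2.

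The first group binds double-stranded telomeric DNA or joins shelterin through a protein that does. *Terf1* (ENSMUSG00000025925, chr1:15805646-15844052, plus strand, GRCm38) encodes TRF1, which binds the repeats directly and helps forks copy them. Its level was 41.5, 41.5 and 37.8 CPM in control pools 1 to 3 and 20.7, 20.1 and 39.4 CPM in quercetin pools 1 to 3. The 3 controls lay close together, quercetin pools 1 and 2 lay below them, and quercetin pool 3 lay among them. The means were 40.3 ± 2.13 and 26.7 ± 11 CPM (SD, n = 3 each). The log2 fold change was -0.59 (SE 0.28), with a 95% interval from -1.22 to 0.03, which spans folds of 0.431 to 1.02 (adjusted p = 0.988, edgeR's quasi-likelihood test). A two-sided exact permutation test gave p = 0.2, where 0.1 is the smallest p that 3 pools against 3 allow. *Terf1* had the smallest unadjusted p of the 10 members, 0.0609 in edgeR.

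The counts behind *Terf1* were 370, 345 and 336 in the controls and 165, 183 and 335 with quercetin. The coefficient of variation was 5.3% among controls, where counting error alone gives 5.34%, and 41.2% among quercetin pools, where it gives 6.63%. The low quercetin pools of *Terf1* were those at the low end of the first principal component, whose part in the difference was not tested. Without quercetin pool 3 the log2 fold change was -0.98 (edgeR adjusted p = 0.183), in a fit where 12.8% of all tested genes had an unadjusted p under 0.05. Without quercetin pool 1 it was -0.44, without quercetin pool 2 it was -0.42, and it was below 0 under every other setting tried. Of the 31-base words of its transcripts, 5.76% also occur in transcripts of other genes, on either strand.

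*Terf2* (ENSMUSG00000031921, chr8:107069400-107096547, minus strand) encodes TRF2, which binds the same repeats and shelters the end in a loop. It was at 40.6, 39.2 and 21.4 CPM in controls and at 33.3, 36.4 and 37.3 CPM with quercetin. Here the low pool was a control, pool 3, and the quercetin pools lay close together between it and the other controls. The means were 33.7 ± 10.7 and 35.7 ± 2.09 CPM (SD, n = 3 each). *Terf2* had a log2 fold change of 0.08 (SE 0.26), with a 95% interval from -0.50 to 0.66 (adjusted p = 0.995, edgeR's quasi-likelihood test), and it turned to -0.15 without control pool 3. The ratio of *Terf2* to *Terf1*, per kilobase of exon, was 0.832 ± 0.23 in controls and 1.46 ± 0.456 with quercetin (SD, n = 3 each). Its ranges, 0.567 to 0.981 and 0.949 to 1.82, overlap.

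*Terf2ip* (ENSMUSG00000033430, chr8:112011398-112020528, plus strand) encodes RAP1, which joins shelterin through TRF2. It was at 2.58, 3.61 and 2.14 CPM in controls and 4.01, 5.59 and 2.94 CPM with quercetin. Quercetin pools 1 and 2 lay above all controls and quercetin pool 3 lay among them. With scaling by library size alone, quercetin pool 1 was at 3.78 CPM, just below control pool 2 at 3.81 CPM. The means were 2.78 ± 0.754 and 4.18 ± 1.33 CPM (SD, n = 3 each), from 19 to 51 counts a pool. Other genes hold 5.4% of its 31-base words, *Gm6793*, which overlaps it on the opposite strand, among them. The log2 fold change was 0.59 (SE 0.36), with a 95% interval from -0.22 to 1.4, or folds of 0.861 to 2.65 (adjusted p = 0.988, edgeR's quasi-likelihood test; exact permutation p = 0.2, two-sided). Per kilobase, *Terf2* stood 13.2 ± 3.35 times above *Terf2ip* in controls and 9.9 ± 3.44 times above it with quercetin (SD, n = 3 each).

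**Figure D2:**
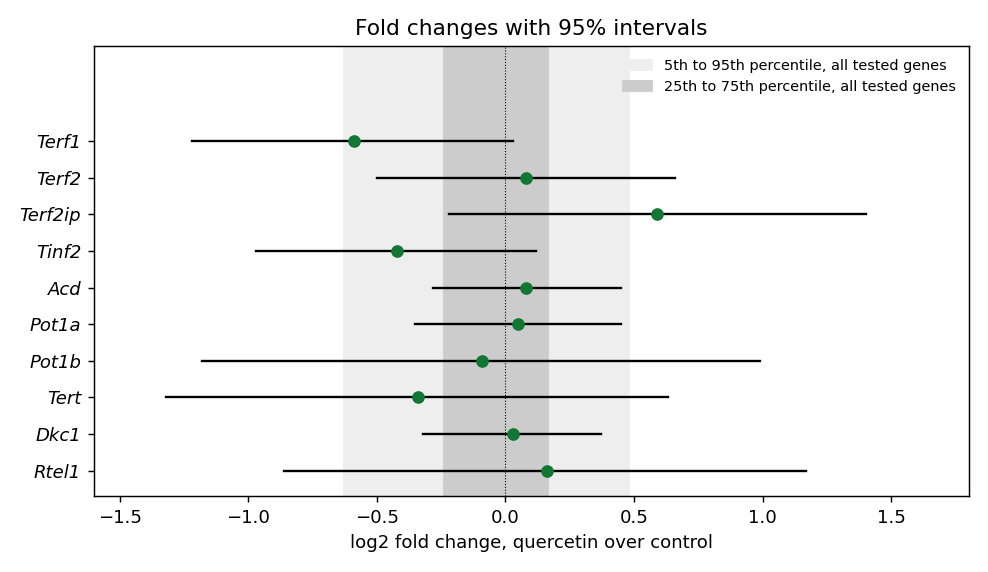
Log2 fold change of each gene, quercetin over control, with its 95% interval from edgeR; grey bands give the 25th to 75th and 5th to 95th percentiles of all tested genes. All 10 intervals include 0, with *Terf1* at -0.59 and *Terf2ip* at 0.59 as the ends of the range.

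The next group links the parts of shelterin. *Tinf2* (ENSMUSG00000007589, chr14:55674689-55681820, minus strand) encodes TIN2, the bridge that holds TRF1, TRF2 and TPP1 together. It was at 54.6, 82.7 and 61.4 CPM in controls and at 35.7, 60.2 and 52.4 CPM with quercetin. Quercetin pools 1 and 3 lay below all controls, and quercetin pool 2 fell between controls 1 and 3. The means were 66.3 ± 14.6 and 49.4 ± 12.5 CPM (SD, n = 3 each). *Tinf2* had a log2 fold change of -0.42 (SE 0.24), with a 95% interval from -0.97 to 0.12, or folds of 0.512 to 1.09 (adjusted p = 0.988, edgeR's quasi-likelihood test; exact permutation p = 0.2, two-sided). With scaling by library size alone, *Tinf2* was at 56.2, 87.3 and 61.3 CPM in controls and 33.7, 55.2 and 54.9 CPM with quercetin, which do not overlap. Under that scaling the log2 fold change was -0.51 (edgeR adjusted p = 0.937). The overlap was looked at under it only after the data were seen, and 864 of all tested genes (7.3%) were lower with quercetin without overlap there. Of the exon length of *Tinf2*, 31.2% overlaps *Gmpr2* on the other strand, which had 21 to 36 counts a pool beside 285 to 688 for *Tinf2*.

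*Acd* (ENSMUSG00000038000, chr8:105695860-105701102, minus strand) encodes TPP1, which recruits telomerase and tethers the POT1 proteins. It led the shelterin genes in level per kilobase, and was at 86.5, 72.0 and 83.5 CPM in controls and 96.0, 85.2 and 75.3 CPM with quercetin. The pools of both groups were interleaved. The means were 80.7 ± 7.65 and 85.5 ± 10.3 CPM (SD, n = 3 each). The log2 fold change was 0.08 (SE 0.16), and its 95% interval, -0.28 to 0.45, limits the fold to between 0.823 and 1.37 (adjusted p = 0.990, edgeR's quasi-likelihood test). *Carmil2* on the other strand overlaps 33.3% of its exon length and had 2 to 12 counts a pool, beside 599 to 777 for *Acd*.

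Mice carry a pair of POT1 genes, whose proteins cover the single-stranded overhang at the very end. Cut into every 31-base word, their transcripts share 11 words, 0.13% of those of *Pot1a* and 0.208% of those of *Pot1b*. Only exact matches were searched, and the longest stretch in which both genes are identical is printed here because reads within it fit either gene. It is 41 bases long, lies in 1 exon of each gene, at chr6:25775562-25775602 and chr17:55695064-55695104 on the minus strands of GRCm38, and is carried by 4 of 9 *Pot1a* and 3 of 5 *Pot1b* transcripts.
Pot1a and Pot1b: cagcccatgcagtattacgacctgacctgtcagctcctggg

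*Pot1a* (ENSMUSG00000029676, chr6:25743737-25809246, minus strand) was the steadiest of the 10 genes. It was at 38.4, 42.8 and 38.9 CPM in controls and 43.8, 36.0 and 44.6 CPM with quercetin, and its highest pool was 1.24 times its lowest. The means were 40.0 ± 2.41 and 41.5 ± 4.78 CPM (SD, n = 3 each). The log2 fold change was 0.05 (SE 0.18), with a 95% interval from -0.35 to 0.45, or folds of 0.787 to 1.36 (adjusted p = 0.995, edgeR's quasi-likelihood test). *Pot1b* (ENSMUSG00000024174, chr17:55651951-55712628, minus strand) had only 9 to 25 counts a pool. It was at 1.46, 1.92 and 2.14 CPM in controls and 1.13, 1.10 and 2.94 CPM with quercetin, so quercetin pools 1 and 2 were the lowest and pool 3 the highest of all. Its means were 1.84 ± 0.347 and 1.72 ± 1.06 CPM (SD, n = 3 each). *Pot1b* had a log2 fold change of -0.09 (SE 0.48), and at this depth the 95% interval, -1.18 to 0.99, spans folds of 0.442 to 1.98 (adjusted p = 0.997, edgeR's quasi-likelihood test).

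*Pot1a* therefore made up most of the POT1 transcript in every pool. Of the summed counts of both genes it took 95.6% ± 0.755 in controls and 96.1% ± 2.01 with quercetin (SD, n = 3 each). The lowest share, in quercetin pool 3, was 93.8% of 404 counts, with a 95% Wilson interval of 91 to 95.8%. Per kilobase of exon, *Pot1a* stood 11.1 to 16 times above *Pot1b* in controls and 9.21 to 23.6 times above it with quercetin. Per kilobase of the longest transcript, a length used after seeing the data, it stood 19.9 to 28.8 and 16.6 to 42.6 times above it.

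Telomerase came next. *Tert* (ENSMUSG00000021611, chr13:73626911-73649843, plus strand) encodes the reverse transcriptase and *Dkc1* (ENSMUSG00000031403, chrX:75095854-75109777, plus strand) encodes dyskerin, which holds the telomerase RNA and also modifies ribosomal RNA. The promoters of these genes are printed because the genes form one enzyme and lie far apart in level. Each 300-base window spans the RefSeq start of its gene, most of it upstream, on the plus strand of GRCm38.p6, at chr13:73626661-73626960 for *Tert* and chrX:75095604-75095903 for *Dkc1*, and capitals mark GC-box letters.
Tert: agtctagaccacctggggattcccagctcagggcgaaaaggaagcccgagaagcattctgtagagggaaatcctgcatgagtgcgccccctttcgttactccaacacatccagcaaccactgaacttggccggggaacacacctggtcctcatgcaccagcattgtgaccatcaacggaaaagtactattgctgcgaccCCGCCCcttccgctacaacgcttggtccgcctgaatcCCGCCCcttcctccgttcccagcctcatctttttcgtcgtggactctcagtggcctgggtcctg
Dkc1: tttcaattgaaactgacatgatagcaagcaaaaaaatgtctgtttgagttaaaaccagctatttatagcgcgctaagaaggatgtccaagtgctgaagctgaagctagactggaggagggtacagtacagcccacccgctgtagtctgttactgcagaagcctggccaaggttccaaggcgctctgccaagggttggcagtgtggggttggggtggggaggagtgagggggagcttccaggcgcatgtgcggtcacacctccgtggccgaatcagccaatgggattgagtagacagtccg

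The *Tert* window held 2 GC-boxes (GGGCGG on either strand, found in 35.7% of 32851 RefSeq promoters) and the *Dkc1* window held 0. Neither held an E-box (CACGTG, which reads the same on both strands, in 7.15% of promoters). Their GC contents were 57.3% and 53.0%, beside a median of 52.7%. RefSeq windows were matched for 9 of the 10 members, all but *Terf1*, and none of the 9 held an E-box. *Rtel1*, *Pot1a*, *Terf2*, *Terf2ip* and *Pot1b* held 1 GC-box each. The telomeric repeat TTAGGG, searched on both strands and present in 10.6% of promoters, occurred 1 time, in *Pot1b*.

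*Tert* was at 3.93, 2.40 and 3.26 CPM in controls and at 2.38, 1.32 and 3.88 CPM with quercetin, from 12 to 35 counts a pool. All 6 pools lay above the level of 3 counts. Quercetin pools 1 and 2 lay below all controls, and quercetin pool 3 lay just below the highest control. With scaling by library size alone, quercetin pool 3 was at 4.07 CPM, just above control pool 1 at 4.04 CPM. The means were 3.20 ± 0.764 and 2.53 ± 1.29 CPM (SD, n = 3 each). *Tert* had a log2 fold change of -0.34 (SE 0.43), with a 95% interval from -1.32 to 0.63, or folds of 0.402 to 1.54 (adjusted p = 0.988, edgeR's quasi-likelihood test).

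*Dkc1*, the highest member per kilobase, was at 435, 425 and 424 CPM in controls and 429.8, 510.4 and 367 CPM with quercetin. After TMM scaling the controls differed from each other by no more than counting error gives, and the quercetin pools lay on both sides of them. With scaling by library size alone the controls lay further apart, at 447, 449 and 423 CPM, beside 405, 468 and 384 CPM with quercetin. The values that follow use TMM scaling. The coefficient of variation was 1.37% in controls and 16.5% with quercetin, where counting error gives 1.64% in each. The means were 428 ± 5.88 and 436 ± 72.0 CPM (SD, n = 3 each). *Dkc1* had a log2 fold change of 0.03 (SE 0.15), with a 95% interval from -0.32 to 0.37, or folds of 0.803 to 1.29 (adjusted p = 0.998, edgeR's quasi-likelihood test). Per kilobase, *Dkc1* stood 154 to 246 times above *Tert* in controls and 131 to 539 times above it with quercetin.

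The RNA template of telomerase, *Terc*, was at 0 counts in every pool, which allows up to 0.381 CPM in the shallowest. It is a short RNA without a poly(A) tail, and kits of this type prime from such tails, so the limit holds for RNA that the kit can copy. The stretch around its template is shown because the repeats that telomerase adds are copied from it. The window is bases 18 to 47 of the 423-base transcript, chr3:96414813-96414842 on the minus strand of GRCm38, and capitals mark the template letters, bases 29 to 36.
Terc: ggcctcggcacCTAACCCTgattttcatta

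*Rtel1* (ENSMUSG00000038685, chr2:181319739-181356616, plus strand) encodes a DNA helicase that unwinds telomeric loops and other structures during replication. It was at 2.81, 3.73 and 2.03 CPM in controls and 4.13, 1.43 and 4.0 CPM with quercetin. Quercetin pool 2 was the lowest of the 6 and quercetin pools 1 and 3 were the highest. The means were 2.85 ± 0.852 and 3.19 ± 1.53 CPM (SD, n = 3 each). *Rtel1* had a log2 fold change of 0.16 (SE 0.45), with a 95% interval from -0.86 to 1.17, or folds of 0.55 to 2.25 (adjusted p = 0.995, edgeR's quasi-likelihood test).

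To compare levels between genes, CPM was divided by the kilobases of exon of each gene. Over all 6 pools *Dkc1* led at 105 ± 11.1 CPM per kilobase (SD, n = 6), above 95.2% of tested genes. *Acd* followed at 22.9 ± 2.36, *Tinf2* at 11.7 ± 3.09, *Terf2* at 7.55 ± 1.52, *Terf1* at 7.27 ± 2.23 and *Pot1a* at 4.70 ± 0.401 CPM per kilobase. A lower set held *Terf2ip* at 0.702 ± 0.25, *Tert* at 0.50 ± 0.177, *Rtel1* at 0.456 ± 0.169 and *Pot1b* at 0.338 ± 0.134 CPM per kilobase, with *Pot1b* above 6.5% of tested genes. Neighbours in this order were separate, with ranges over pools that did not overlap, at 3 steps only. *Dkc1* was 4.6 ± 0.526 times *Acd*, *Acd* was 2.12 ± 0.823 times *Tinf2*, and *Pot1a* was 7.39 ± 2.34 times *Terf2ip* (SD, n = 6), each in 6 of 6 pools. *Terf2* lay above *Terf1* in only 2 of 6 pools and *Terf2ip* above *Tert* in 3 of 6. With the longest transcript as the length, chosen after seeing the data, *Pot1a* moved above *Terf1* and *Rtel1* above *Tert*. In control pool 2, *Acd* at 72.0 CPM over 3154 bases then lay below *Tinf2* at 82.7 CPM over 3374 bases. With that length the ranges of *Acd* and *Tinf2* over pools therefore overlapped.

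**Figure D3:**
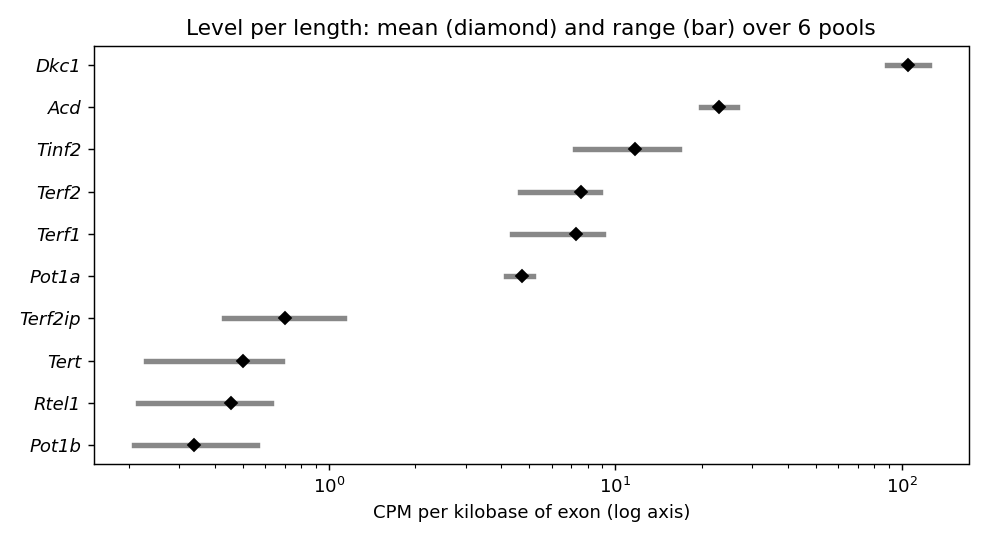
Level of each gene in CPM per kilobase of exon on a log axis, with the mean over the 6 pools as a diamond and the range over pools as a bar. A gap separates the 6 higher genes, down to *Pot1a* at 4.70, from *Terf2ip*, *Tert*, *Rtel1* and *Pot1b* at 0.702 or less.

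Genes that work beside these 10 were read from the same fit in 4 lists of 51 genes, of which 43 were tested. Their log2 fold changes split into 21 above and 22 below 0, with a median of -0.001, and 0 were called. An unadjusted p under 0.05 was found for 3 of them (2 higher, 1 lower), beside 4.03% of all tested genes. The pools did not overlap in 4 of the 43 (3 higher, 1 lower), beside 10.6% of all tested genes.

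Of 17 telomerase assembly partners 15 were tested, with 6 above and 9 below 0 and a median log2 fold change of -0.06. *Terc* and *Wrap53*, whose protein brings the telomerase RNA to Cajal bodies, were at 0 in every pool. *Smg6*, an endonuclease of nonsense-mediated decay, had 106, 81 and 87 counts in controls and 123, 125 and 141 with quercetin. That is 10.5 ± 1.23 and 15.2 ± 1.45 CPM (SD, n = 3 each), with a log2 fold change of 0.54 (SE 0.21, edgeR adjusted p = 0.988). *Hsp90aa1*, a chaperone used in telomerase assembly, had the highest level of its list at 460.1 CPM per kilobase and a log2 fold change of -0.31, and 51.5% of its 31-base words also occur in transcripts of other genes.

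The list of the CST complex and primase, which fill in the end after telomerase, had 7 genes, all tested, with 4 above and 3 below 0 and a median log2 fold change of 0.12. *Ten1*, the smallest CST subunit, had 23, 18 and 24 counts in controls and 7, 9 and 10 with quercetin, so the groups did not overlap. Its level was 2.48 ± 0.282 and 1.01 ± 0.152 CPM (SD, n = 3 each), a log2 fold change of -1.28 (SE 0.37, 95% interval -2.11 to -0.45). Its unadjusted p was 0.0069 and its adjusted p 0.988 in edgeR's quasi-likelihood test. *Ctc1*, the largest CST subunit, had a log2 fold change of 0.24, and *Prim2*, the large primase subunit, of 0.32, so the values within the list did not point one way.

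Of 20 end processing and replication genes 18 were tested, with 9 above and 9 below 0. *Dclre1a*, a nuclease of crosslink repair, was the highest of them, at 942 ± 26.1 CPM in controls and 1160.3 ± 78.0 CPM with quercetin (SD, n = 3 each). Its log2 fold change was 0.30 (SE 0.13, edgeR adjusted p = 0.988), and its pools did not overlap. *Zbtb48*, a protein that binds telomeric repeats, was the lowest, at 0 to 7 counts a pool, and was not tested. Among 7 genes of meiotic telomere attachment only 3 were tested, with a median log2 fold change of 0.25. *Terb1*, which anchors telomeres to the nuclear envelope in meiotic prophase, was the highest at 103 ± 5.35 and 122 ± 19.5 CPM (SD, n = 3 each). *Sun2*, an envelope protein of that attachment, was at 0 in every pool.

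**Figure D4:**
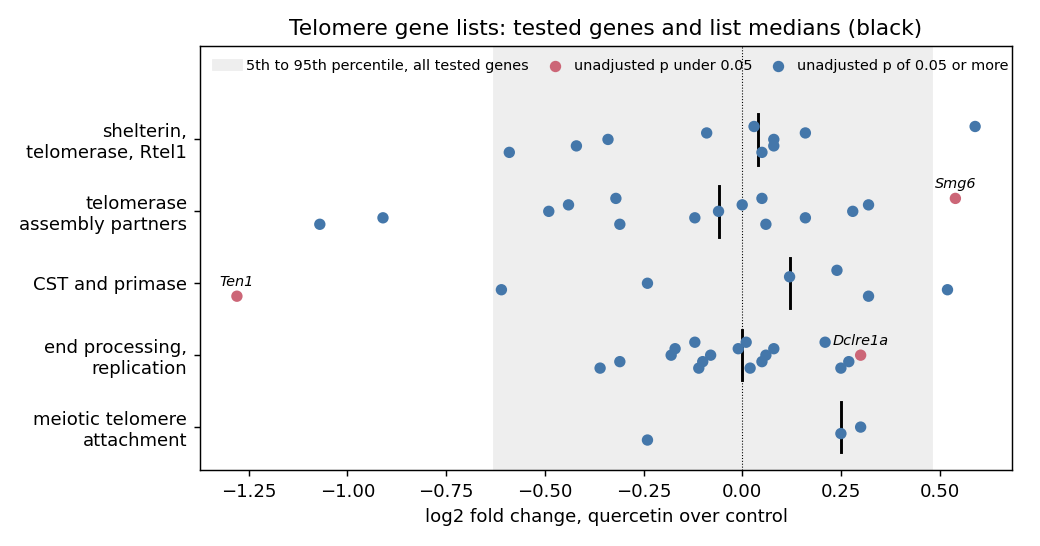
Log2 fold change, quercetin over control, of each tested gene in the 10-gene set and the 4 further lists, with each median as a black line. Red marks an unadjusted p under 0.05, which *Smg6*, *Ten1* and *Dclre1a* reach; the grey band is the 5th to 95th percentile of all tested genes.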

How the data were processed

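The authors deposited 1 table of raw read counts per Ensembl gene with 1 column per pool. The submitters' notes list CASAVA 1.8, TopHat2 2.0.6 and the builds mm10 and GRCm38, whereas the study's methods name Hisat2. The counting program, its use of strand and its treatment of multiply mapped reads are not given in the sources used here. Identifiers were matched to symbols by GRCm38 annotation (53274 of 53465). Genes were filtered with filterByExpr (minimum count 10), scaled by TMM and tested with edgeR 4.0.16 (R 4.3.3) on all 6 pools without covariates, with Benjamini-Hochberg adjustment over 11842 genes. The biological coefficient of variation was 0.269. CPM used TMM-scaled totals (factors 0.9199 to 1.06). Exact permutation tests used log2(CPM + 0.5). The edgeR procedure was also run on simulated data. These were drawn with the same biological coefficient of variation for every gene, so they lack the differences in spread between real genes. Alternatives were DESeq2 1.42.0, limma 3.58.1 (voom), edgeR's likelihood ratio test, other scalings and filters, a replicate block and leaving out each pool. Members and lists were chosen with earlier results of these data known. All 10 members were named, and genes of other lists at an unadjusted p under 0.05 or at the highest or lowest level of their list.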

Additional observations from a re-analysis of the deposited data

How the results depend on the processing

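No member was called under any of the 14 alternatives. Over all genes, 0 calls became 12 with DESeq2, 16 with edgeR's likelihood ratio test and 3 with a filter of at least 1 count in total, and leaving out single pools gave 0 to 7. The number of members with an unadjusted p under 0.05, 0 in edgeR, was 1 with DESeq2 (3.24% of all genes) and 1 with limma-voom (4.56%), *Terf1* in both, and leaving out single pools gave 0 to 1. The 1 was *Terf1* without quercetin pool 3 (log2 fold change -0.98, edgeR adjusted p = 0.183), where 12.8% of all tested genes had such a p.

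With the replicate block it was 2, *Terf1* at -0.66 and *Tinf2* at -0.43 (edgeR adjusted p = 0.906 for each), beside 4.15% of all tested genes, with 0 genes called. Deviations of same-numbered pools from their group means had correlations of 0.296, 0.101 and -0.0303. Their mean was 0.122, beside -0.0612 for pools with different numbers, and so few pools cannot settle whether the numbers pair them. The main fit was unpaired because the study's methods describe no pairing.

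Of 139 values of the 10 members, 125 kept their sign, and *Terf1*, *Terf2ip*, *Tinf2* and *Tert* kept it throughout. Without 1 pool, *Terf1* ranged from -0.98 to -0.42, *Terf2ip* from 0.33 to 0.83, *Tinf2* from -0.59 to -0.23 and *Tert* from -0.80 to -0.03, the last without quercetin pool 2. With library size only, which moved the median of all genes by -0.085, *Terf2* was at -0.01, *Pot1a* at -0.03, *Acd* at -0.0046 and *Dkc1* at -0.07. Over the fits that each lacked 1 pool, *Terf2* ranged from -0.15 to 0.24, *Pot1a* from -0.0029 to 0.15, *Pot1b* from -0.72 to 0.15, *Acd* from -0.01 to 0.17, *Dkc1* from -0.10 to 0.14, *Rtel1* from -0.07 to 0.51 and *Ctc1* from -0.04 to 0.55. The cause was not tested. *Pot1b* was not tested under the filter of 10 counts in every pool. Depth limits *Pot1b*, *Tert*, *Rtel1* and *Terf2ip* most, at 9 to 51 counts a pool.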

Other observations

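The members spread more among quercetin pools than among control pools. The coefficient of variation of CPM was larger with quercetin in 9 of the 10, all but *Terf2*, and in 7139 of the 11842 tested genes (60.3%). Its median over the members was 20.5% in controls and 28.6% with quercetin, beside 17.8% and 22.2% over all tested genes. The size of the difference varied, from 22.1% and 25.3% for *Tinf2* and 27.2% and 31.9% for *Terf2ip* to 5.3% and 41.2% for *Terf1*. Counting error alone gives 16.7 to 26.1% for *Terf2ip*, *Tert*, *Rtel1* and *Pot1b*, and these coefficients include it. Quercetin pools 1 and 2 lay at one end of the first principal component and quercetin pool 3 at the other, and the part of that separation in the spread was not tested.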
